A study of Mus musculus with 3 samples.

Results

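The genes described here are the collagens, laminins and other matrix proteins of cells from the mouse pituitary's intermediate lobe (IL). They were taken by symbol (every collagen chain, laminin chain, nidogen, fibulin and fibrillin, with Fn1, Sparc, Sparcl1 and Hspg2), which gave 64 of the 17775 genes in the deposited tables. Of these, Col4a3bp matches by its letters only: it encodes a ceramide transfer protein and was set aside, leaving 63. A row was present in all 3 tables for 59 of the 63, and 60 had at least 10 unique molecular identifiers (UMIs, each standing for 1 captured transcript) over all cells.

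Droplet transcriptomes were collected from dissected ILs of mice aged 3 months, as 1 library for each of 3 genotypes. All carried Sox9iresCreERT2/+, a tamoxifen-inducible Cre recombinase placed at Sox9, a gene of stem cells (SCs). WT had no other allele by its label, P27NULL was also p27-/-, and S2CK was p27-/- with Sox2fl/+, a single Sox2 copy that Cre can delete. The study's methods add a YFP reporter at Rosa26 to the genotypes. The labels give tamoxifen by gavage at 4 weeks of age, whereas the text of the study places recombination at birth. The methods describe each library as a pool of animals, all male for WT and of both sexes for the others, so genotype, sex and pool cannot be told apart. The study compared the libraries to see what loss of p27 and of a Sox2 copy changes in SCs and in melanotrophs, the endocrine cells of the IL.

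Collagens are trimers of intertwined chains. The fibrillar ones, such as types I and III, make the ropes of connective tissue, whereas collagen IV forms the sheet of the basement membrane, the thin layer on which epithelial cells and vessel walls rest. Laminins, each built from an alpha, a beta and a gamma chain, form the other sheet, and nidogens and perlecan (Hspg2) link both. In the pituitary, basement membranes lie around the vessels and under the epithelium that lines the cleft, where SCs reside.

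Cells were grouped by clustering without the matrix genes and were named from marker genes, none of them a matrix gene listed here. A name therefore stands for cells that resemble the type, as in SC-like, and is written below without the suffix. The numbers of cells in WT, P27NULL and S2CK were 53, 44 and 39 for connective tissue, 77, 21 and 43 for endothelial cells, 137, 104 and 83 for SCs and 1223, 3533 and 2509 for melanotrophs. Corticotrophs, gonadotrophs, the Pou1f1 lineage (somatotrophs, lactotrophs and thyrotrophs), pituicytes (glia of the posterior lobe), macrophages and T or NK cells made up most of the rest. The libraries held 8332285, 15588317 and 19239147 UMIs in 2020, 4153 and 3488 cells, and pairs of libraries shared 2 to 4 barcodes. In S2CK 492 cells (14.1%) stayed without a name, 470 of which scored as melanotrophs. Cdkn1b, the gene of p27, was still read in melanotrophs of the library labelled P27NULL, at 31.0 CPM (UMIs of the gene scaled to 1000000 UMIs in all) against 34.2 in WT and 16.5 in S2CK. A 3′ end read does not test a deletion elsewhere in the gene, so the label could not be checked in this way.

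Levels below are CPM of the UMIs summed over the cells of a type in a library. A 3′ count does not grow with the length of a transcript. How well each gene's 3′ end is captured and annotated was not tested, so an order between genes is one of UMIs. Intervals are 95% and cover counting error only, as there was 1 library per genotype. A gene is called raised in a cell type when its CPM was at least 4 times that of all other cells of the same library in each library, with at least 10 UMIs in the type. This is a description of the clusters and not a test, and the other cells are mostly melanotrophs. The minimum of 10 UMIs itself favours genes that are high in small groups of cells, so these counts lend no support to a pattern.

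Basement membrane transcripts (collagen IV, laminins, nidogens and perlecan) were densest in endothelial and connective tissue cells, and fibrillar collagen transcripts in connective tissue. The basement membrane genes summed to 1655, 3064 and 1401 CPM in endothelial cells of WT, P27NULL and S2CK. In connective tissue the sums were 1081, 1338 and 1661 CPM, and in SCs 389.8, 465 and 489.6 CPM. Melanotrophs had 26.6, 25.9 and 18.6 CPM. A reference from cells not known for making basement membrane was thin. The cluster of 152 T or NK cells had 21.0 CPM with the libraries together (10.5 to 37.5), but 77 of these cells fell in melanotroph clusters at Leiden resolution 2 and held 75965 CPM of Pomc. The other 75, with 12458 CPM of Pomc, had 2 basement membrane UMIs, or 13.0 CPM (1.58 to 47.1), an interval that holds all 3 melanotroph values. SCs were more than 10 times above melanotrophs in every library.

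The fibrillar collagens followed another order. Connective tissue had 1743, 1873 and 1412 CPM of them, against 34.5, 156 and 0 in endothelial cells, 84.3, 92.6 and 90.6 in SCs and 16.2, 21.8 and 15.0 in melanotrophs. Basement membrane genes made up 38.3, 41.7 and 54.0% of both sums in connective tissue (44.7 ± 8.30, SD over n = 3 libraries). The share was 97.7% ± 2.44 in endothelial cells, 83.3% ± 1.09 in SCs and 57.3% ± 4.19 in melanotrophs. The ranges of the 3 libraries did not overlap between endothelial cells, SCs and connective tissue, while melanotrophs, at 54.3 to 62.1%, lay just above the highest connective tissue library.

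**Figure D1:**
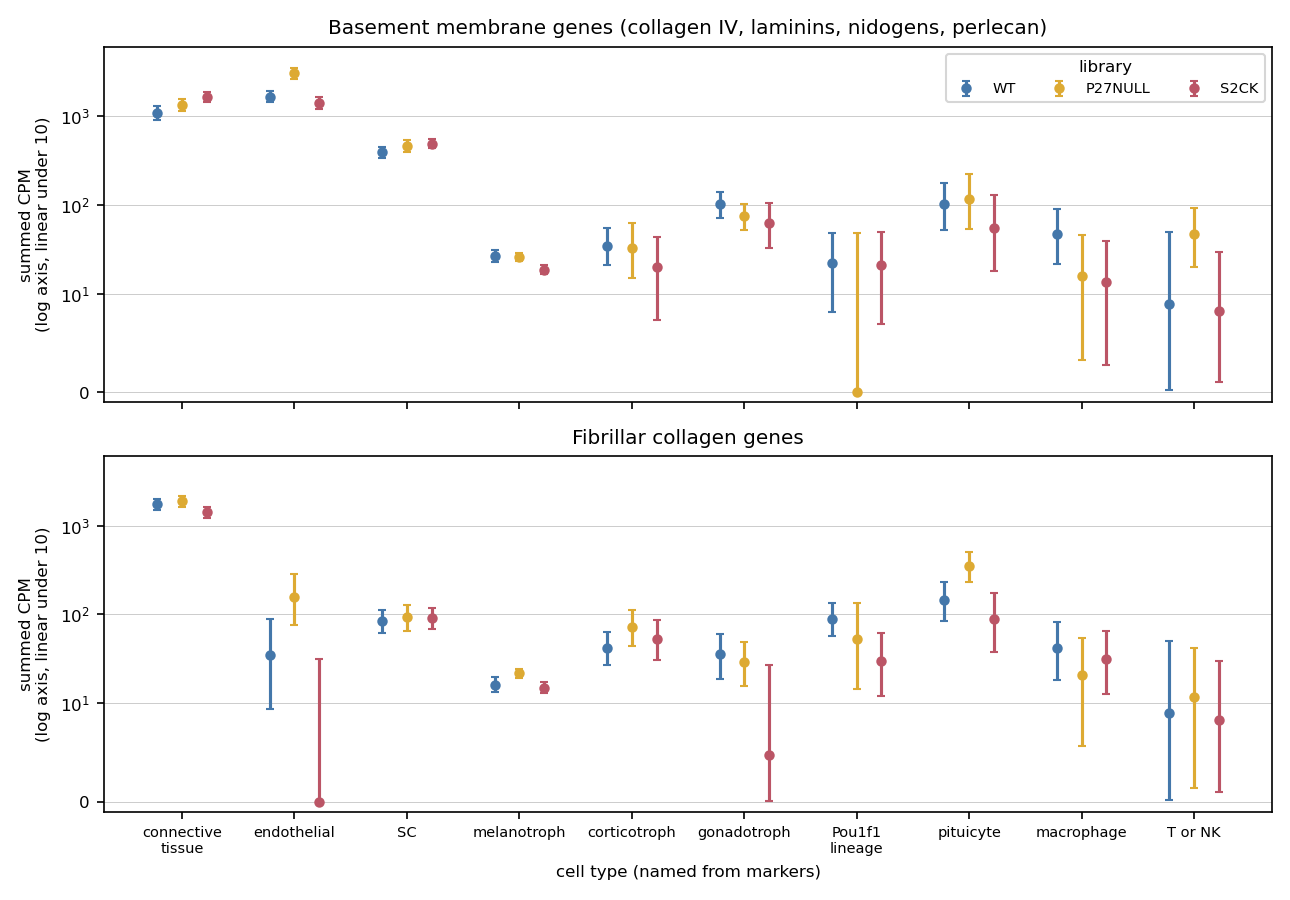
Summed CPM of the basement membrane genes (upper panel) and of the fibrillar collagen genes (lower panel) in 10 cell types, by library (colour), on an axis that is logarithmic above 10 and linear below. Bars are exact 95% Poisson intervals. Endothelial, connective tissue and SC points stand highest in the upper panel, and connective tissue in the lower, at 1412 to 1873 CPM.

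Counted by cells, the same division was seen. A basement membrane UMI was found in 78.7% of connective tissue cells, 81.6% of endothelial cells, 68.2% of SCs and 9.53% of melanotrophs. For fibrillar collagens the shares were 82.4, 4.96, 22.8 and 7.68%. The 75 cells named T or NK at both resolutions gave 2.67% (0.325 to 9.30) and 4.00% (0.833 to 11.2), at the low median depth of 1439 UMIs, as a rough gauge of the free RNA that droplets take up. All 152 gave 5.92 and 3.29%. Most connective tissue cells, 68.4%, held a UMI of both kinds, so the groups of genes were read in the same cells and not only in the same cluster. Median UMIs per cell were 2165.5 in connective tissue, 1537 in endothelial cells, 2405 in SCs and 4132 in melanotrophs, so that of these 4 types melanotrophs had the deepest cells and the lowest basement membrane share. Because melanotrophs were so many, they still held 28.3% of all basement membrane UMIs of the series and 38.2% of the fibrillar ones, from 79.1% of all UMIs. Connective tissue, with 0.852% of all UMIs, held 18.4 and 38.0%.

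**Figure D2:**
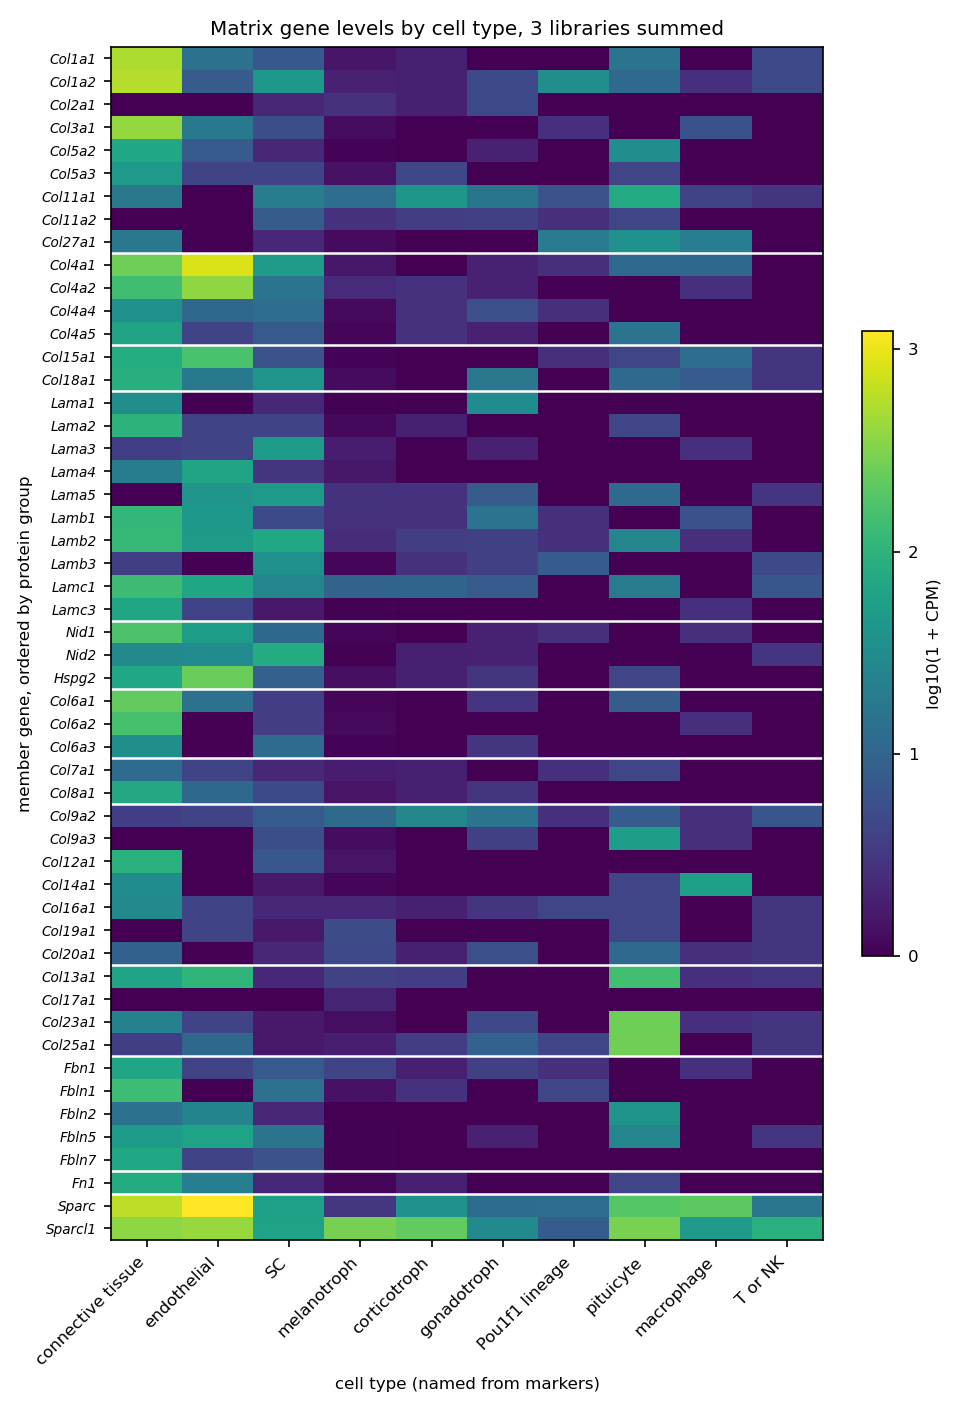
Levels of matrix genes with at least 25 UMIs over all cells (rows, grouped by protein) in 10 cell types (columns), as log10 of 1 plus CPM with the 3 libraries summed. White lines divide the protein groups. Connective tissue is bright over most rows, endothelial cells at Col4a1, Col4a2, Hspg2 and Sparc, SCs at Lama3, Lamb3 and Nid2, and pituicytes at Col23a1 and Col25a1.

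Connective tissue had the broadest set. Of the 63 genes 38 had at least 10 UMIs there and 35 were raised, against 9.52% of all 5064 genes with that many UMIs. They comprised 6 fibrillar collagens (Col1a1, Col1a2, Col3a1, Col5a1, Col5a2 and Col5a3), 4 collagen IV chains, 6 laminin chains, both nidogens and perlecan, all 3 measurable collagen VI chains, 4 of the fibulins and fibrillins, and Fn1. Col1a1 and Col1a2, the chains of type I collagen, were read at nearly equal levels. Col1a1 was at 532 CPM in WT, 606 in P27NULL and 419 in S2CK. Col1a2 was at 558, 696 and 440.0 CPM, and Col3a1, the chain of type III collagen, at 453, 348 and 390.3 CPM. Among all these genes Sparc, a collagen-binding glycoprotein, stood highest in WT and S2CK with 723 and 554 CPM, and was at 535 CPM in P27NULL. In each of these 4 genes the libraries were within 2-fold of each other.

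Collagen VI, a beaded filament that lies next to basement membranes, was uneven. Col6a1 was at 209, 205 and 241 CPM, but Col6a2 at 261, 178 and 49.7 CPM, from 30, 20 and 7 UMIs. The low Col6a2 library was S2CK, in which Col6a1 was not low. Fibronectin (Fn1), the glycoprotein that seeds many matrices, was at 131, 71.4 and 42.6 CPM, and its 6 UMIs in S2CK came from 1 cell. The main alpha chain was Lama2, the laminin chain of muscle and mesenchyme, at 95.9, 107 and 92.3 CPM. Lamc1, a gamma chain, was at 122, 107 and 156 CPM, and Lamc3 at 8.72, 62.4 and 114 CPM. Nid1 was at 131, 187 and 185 CPM. Lama3 and Lamb3 had 1 UMI each here over the 3 libraries.

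The promoters of Col1a2 and Col3a1 are shown because, of the 3 leading fibrillar genes of connective tissue (Col1a1, Col1a2 and Col3a1), these have a promoter entry. The 250 bases before each start are given on the strand of the gene (RefSeq, GRCm38.p6), Col1a2 at chr6:4505368-4505617 and Col3a1 at chr1:45311288-45311537. Capitals mark GC boxes (GGGCGG, at 205 and 188 bases before the start) and a CCAAT box (CCAAT, at 109) in Col1a2, and a TATA box (TATAAA, at 117) in Col3a1.
Col1a2: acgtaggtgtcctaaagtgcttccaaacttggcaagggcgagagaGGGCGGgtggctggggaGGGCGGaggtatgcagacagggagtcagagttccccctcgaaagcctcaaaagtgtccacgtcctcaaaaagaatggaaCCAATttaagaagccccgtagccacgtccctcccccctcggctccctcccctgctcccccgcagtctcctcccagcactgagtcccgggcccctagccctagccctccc
Col3a1: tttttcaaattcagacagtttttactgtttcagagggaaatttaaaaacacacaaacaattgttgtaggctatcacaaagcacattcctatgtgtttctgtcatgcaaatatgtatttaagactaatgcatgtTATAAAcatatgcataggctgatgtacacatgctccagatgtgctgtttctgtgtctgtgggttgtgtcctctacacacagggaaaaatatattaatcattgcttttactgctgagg
Of 27025 genes with an entry, 32.9% hold GGGCGG, 34.5% CCAAT and 13.0% TATAAA in these 250 bases, on either strand. The 48 matrix genes with a promoter entry hold them in 58.3, 33.3 and 10.4%. A match is only a run of letters and not a site of binding.

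Endothelial cells carried the collagen IV and perlecan of vessel walls. Here 14 of the 63 genes had at least 10 UMIs and 10 were raised, against 13.7% of 4284 genes: Col4a1, Col4a2, Hspg2, Nid1, Lama4, Lama5, Lamb1, Col15a1, Col13a1 and Sparc. No fibrillar collagen reached 10 UMIs. Col4a1 was at 819, 1454 and 535 CPM, the highest levels of this gene in any type. Col4a2 was at 249.9, 578 and 399 CPM and Hspg2 at 233, 344 and 204 CPM. P27NULL, with the fewest cells, had the highest value of each. Lama4, the alpha chain of vessel laminin, was at 43.1, 141 and 42.4 CPM, and Col15a1, which sits between basement membrane and stroma, at 129, 141 and 195 CPM. Sparc reached 1198, 1626 and 1061 CPM.

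Col4a1 and Col4a2 encode the chains of the common collagen IV trimer and lie head to head on chromosome 8, read in opposite directions. The stretch from the Col4a2 start to the Col4a1 start (RefSeq, GRCm38.p6, chr8:11312805-11312826, on the Col4a2 strand) is shown because transcripts of both genes begin in it. The starts are those of the promoter table, whereas the RefSeq interval of the whole Col4a1 gene runs on to 11312889.
Col4a2 start to Col4a1 start: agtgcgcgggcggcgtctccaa
With the libraries summed, Col4a1 made up 69.0% of the UMIs of the pair in endothelial cells, 65.1% in connective tissue and 77.3% in SCs. In melanotrophs, with 20 UMIs of Col4a1 and 48 of Col4a2, it made up 29.4%.

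Pericytes, the contractile cells around capillaries, formed no cluster of their own, and their markers were spread mainly over endothelial and connective tissue cells. Of these markers, Notch3 was also read in SCs, at 16.9, 42.3 and 30.2 CPM. The 8 pericyte markers summed to 914, 1454 and 339.6 CPM in endothelial cells and to 235, 642 and 1121 CPM in connective tissue, in the order WT, P27NULL and S2CK. Rgs5 alone gave 67 of the 106, 49 of the 93 and 34 of the 40 marker UMIs in endothelial cells. All 8 were read in endothelial cells of at least 1 library, while Abcc9, Notch3, Cspg4 and Myh11 were at 0 there in S2CK. Myh11 was at 0 in connective tissue of all 3. At least 2 pericyte UMIs were found in 35 of the 141 endothelial cells and in 31 of the 136 connective tissue cells. Col4a1 was at 1087 CPM in these endothelial cells and at 721 CPM in the others, and at 573 against 155 CPM in connective tissue. Sparc did not follow this split in endothelial cells (1268 and 1219 CPM). Of the 14 fibrillar collagen UMIs of endothelial cells, 11 lay in the cells with pericyte markers.

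In SCs the raised genes were mainly laminin chains. Of the 63 genes 24 had at least 10 UMIs and 10 were raised, against 7.88% of 10237 genes, among them Lama3, Lamb3, Lama5, Lamb2, Nid2, Col18a1, Col4a4, Fbln1 and Fbln5. Lamb2, Nid2, Col18a1, Col4a4, Fbln1 and Fbln5 were raised in connective tissue too, so much of this set was shared. Lama3 and Lamb3 encode an alpha and a beta laminin chain of epithelia, which serve to anchor them to their basement membrane. Lama3 was at 41.2 CPM in WT, 37.0 in P27NULL and 60.4 in S2CK. Lamb3 was at 26.2, 21.2 and 49.3 CPM. Together they summed to 67.5, 58.2 and 109.7 CPM in SCs, and to 0, 0 and 14.2 CPM in connective tissue and 0, 0 and 8.49 CPM in endothelial cells. Melanotrophs had 0.338, 1.10 and 0.894 CPM, and T or NK cells 9.0, 5.82 and 0 CPM (6.52 CPM, from 1 UMI, over the 75 cells named so at both resolutions). The SC values lay above those of these 4 other types in each library.

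A UMI of Lama3 or Lamb3 was found in 73 of 324 SCs, or 22.5% (18.1 to 27.5), against 1.32% of all T or NK cells, 1.33% of the 75 and 0.399% of melanotrophs. Lama5 and Lamb2, laminin chains of many mature basement membranes, were at 37.5, 63.5 and 41.3 CPM and at 61.8, 92.6 and 58.8 CPM. Endothelial cells had Lama5 in the same range, so that chain was raised in both. Col18a1, the source of endostatin, was at 20.6, 63.5 and 41.3 CPM. Collagen IV was present but lower than in the stroma, with Col4a1 at 41.2, 55.5 and 50.9 CPM.

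**Figure D3:**
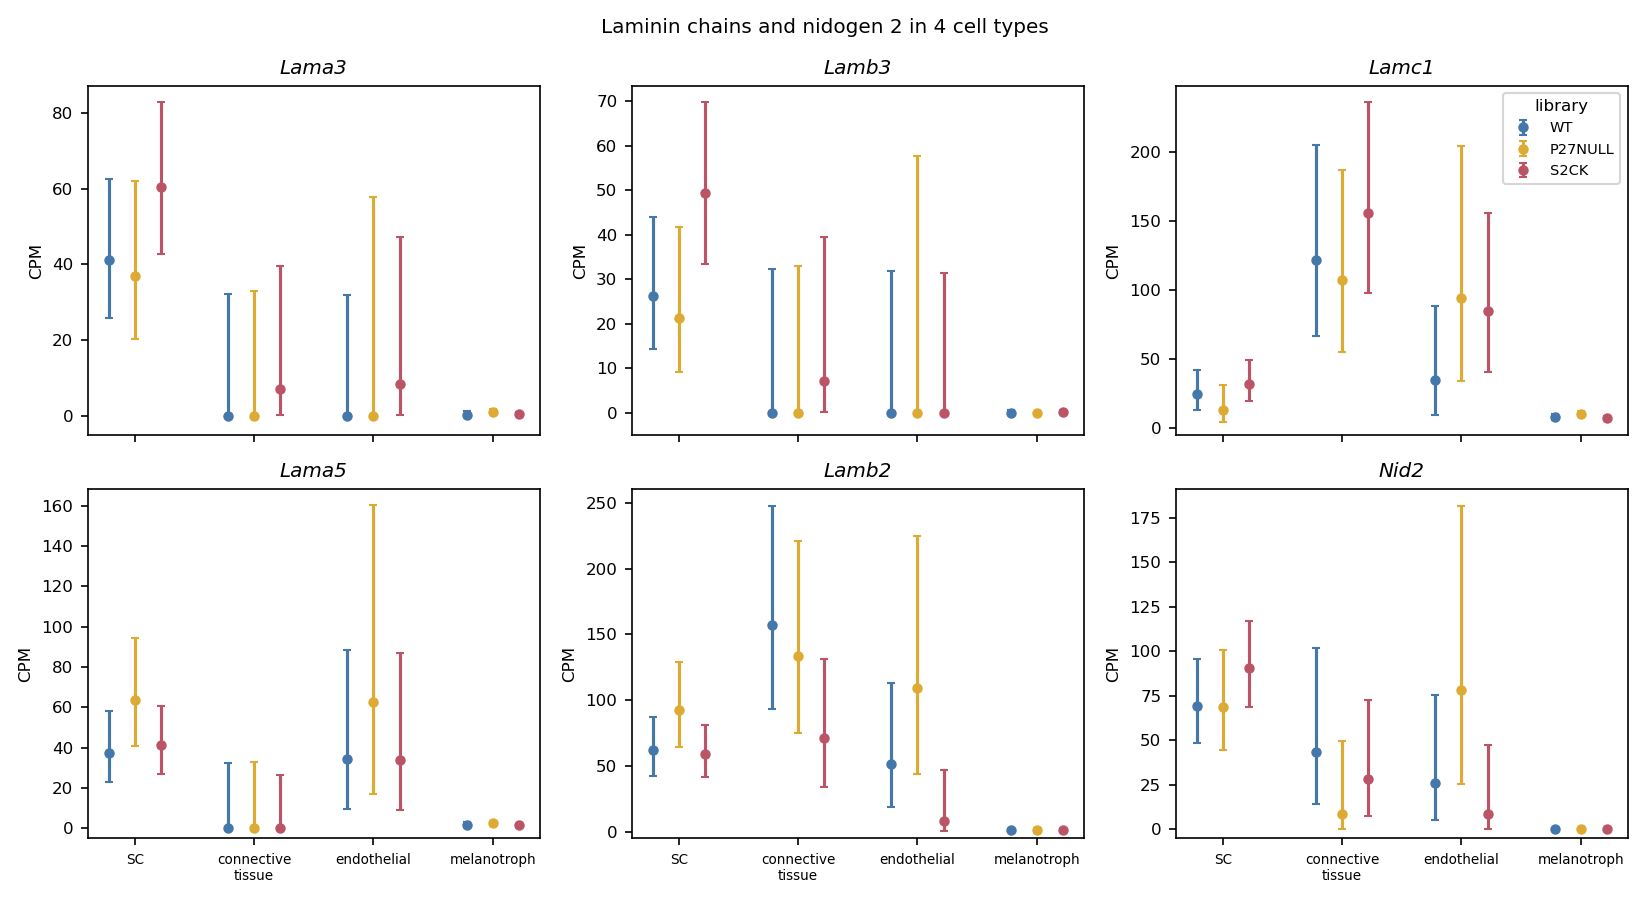
CPM of 5 laminin chains and of nidogen 2 in SCs, connective tissue, endothelial cells and melanotrophs, by library (colour), with exact 95% Poisson intervals. Among the 4 types, Lama3 and Lamb3 points are highest in SCs, Lama5 is read in SCs and endothelial cells, and Lamc1 and Lamb2 are highest in connective tissue in WT.

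Within the nidogen pair, Nid2 was the larger part in SCs and Nid1 in connective tissue. The nidogens link laminin to collagen IV. Nid2 was at 69.3, 68.8 and 90.6 CPM in SCs and Nid1 at 1.87, 10.6 and 15.9 CPM, so that Nid1 made up 2.63, 13.3 and 14.9% of their UMIs. In connective tissue it made up 75.0, 95.5 and 86.7%, and no interval of an SC library met that of a connective tissue library. Nid2 was raised in connective tissue as well, from 10 UMIs. In endothelial cells Nid1 made up 64.0% with the libraries summed. Their Nid2 level in P27NULL, from 5 UMIs, was the highest of any type. For the beta chains, Lamb1 had 0, 3 and 3 UMIs in SCs against 33, 35 and 37 of Lamb2, or 0, 7.89 and 7.50%. In connective tissue Lamb1 made up 28.0, 34.8 and 72.2%. In the SC libraries Lamb2 thus stood for nearly all of the pair, but it was also the larger part in connective tissue of WT and P27NULL, and the intervals of P27NULL overlapped (1.66 to 21.4% in SCs and 16.4 to 57.3% in connective tissue). The level of Lamb2 was higher in connective tissue than in SCs in every library.

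For type I collagen the chains parted in SCs. In connective tissue Col1a1 made up 48.8, 46.6 and 48.8% of the UMIs of Col1a1 and Col1a2. In SCs Col1a2 was at 35.6, 29.1 and 60.4 CPM but Col1a1 at 7.50, 2.64 and 6.36 CPM, and the share of Col1a1 was 17.4, 8.33 and 9.52%. With the libraries summed, it was 11.7% (5.49 to 21.0) in SCs, from 9 and 68 UMIs, and 48.0% (42.9 to 53.0) in connective tissue, from 188 and 204. In the Pou1f1 lineage Col1a2 was at 44.6, 13.1 and 25.5 CPM while Col1a1 had no UMI in any library (0 of 19 UMIs of the pair, interval up to 17.6%).

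**Figure D4:**
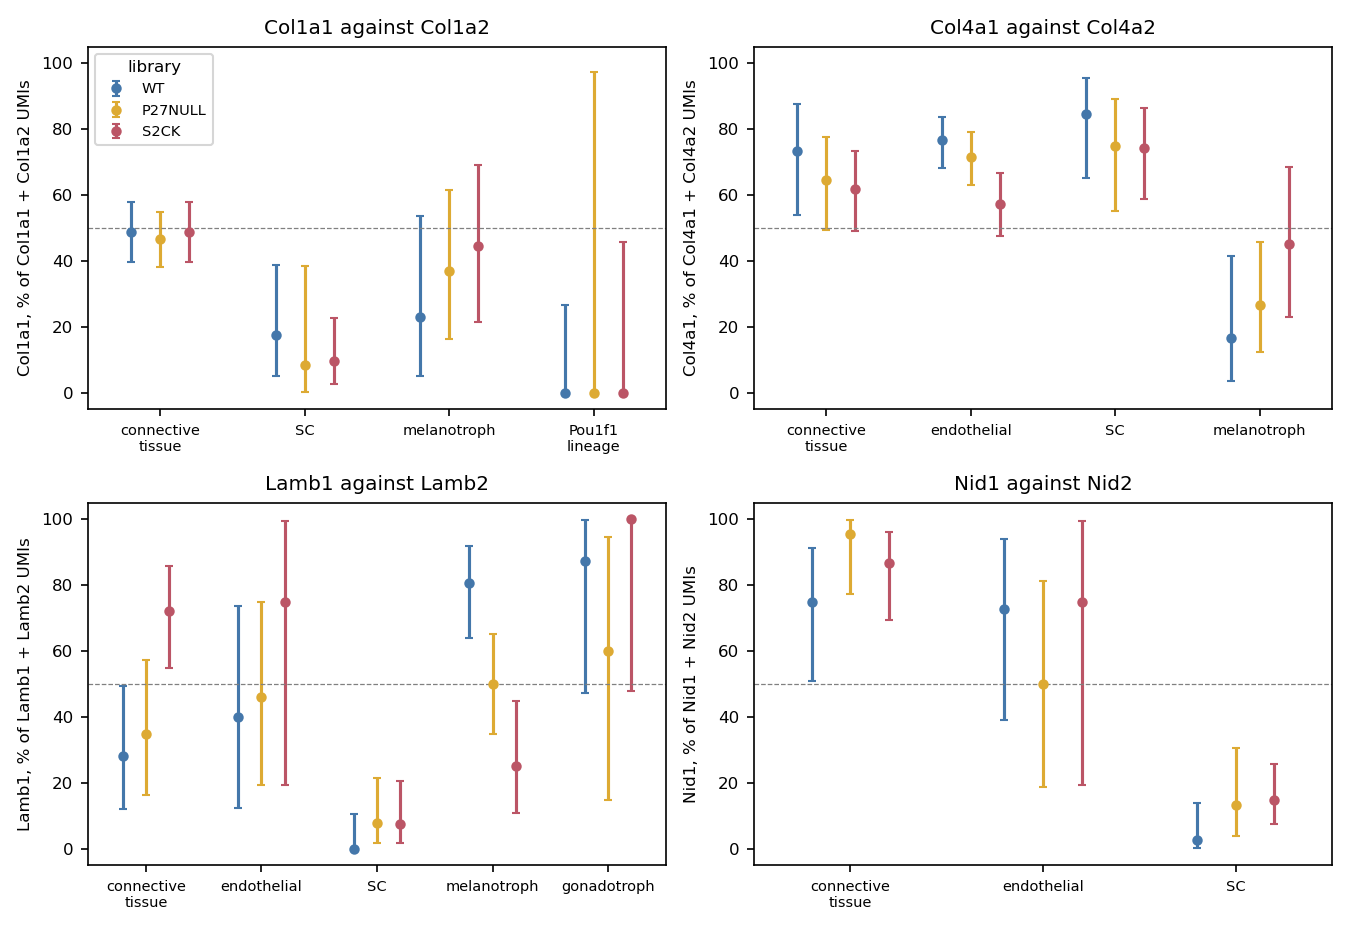
Share of the first gene of a pair, in percent of the UMIs of both, by cell type and library (colour), for Col1a1 and Col1a2, Col4a1 and Col4a2, Lamb1 and Lamb2, and Nid1 and Nid2. Bars are exact 95% binomial intervals and the dashed line marks equal counts. SC points lie low for Col1a1, Lamb1 and Nid1.

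Melanotrophs had low levels of many chains. The raised call says nothing here: 0% of 14571 genes passed it, among them 0 of the 7 markers that name the type and 0 of 31 matrix genes, and the 470 S2CK cells that scored as melanotrophs without a name stood among the other cells. The highest by far was Sparcl1, a relative of Sparc, at 404, 259.8 and 270.4 CPM. Melanotrophs did not stand alone in this. Endothelial cells had 422, 657 and 255 CPM of Sparcl1 and connective tissue 339.9, 312 and 440.0 CPM. Pituicytes had 195, 169 and 527 CPM and corticotrophs 245, 193 and 199 CPM. In SCs, gonadotrophs and macrophages it was at 71.8 CPM or lower. The 75 cells named T or NK at both resolutions held 40.3, 0 and 13.8 CPM of it, from 3 UMIs. It did not reach the 4-fold mark in any type. Next came Col11a1, Col9a2 and Lamc1. Col11a1 and Col9a2, chains best known from cartilage, were at 6.26, 15.3 and 10.6 CPM and at 9.65, 9.50 and 12 CPM. They were higher in corticotrophs, the other Pomc-expressing cells, where Col11a1 was at 31.1, 69.2 and 39.8 CPM and Col9a2 at 27.5, 21.9 and 26.5 CPM. Corticotrophs also had no raised matrix gene (of 5 with 10 UMIs, against 0.834% of 8751 genes). Col17a1, a transmembrane collagen of hemidesmosomes, had 38 of its 40 UMIs in melanotrophs, at only 2.03, 1.17 and 0.687 CPM. Melanotrophs held 34147814 of the 43159749 UMIs of the series. In other types 0 UMIs still allowed 1.95 CPM (SCs) or 8.16 CPM (connective tissue), so an absence of Col17a1 from them was not shown. Col19a1 was at 4.23, 4.09 and 4.12 CPM. It was read at 0 in connective tissue, but 0 UMIs there still allowed 8.16 CPM, so this shows no difference. Its highest level was in T or NK cells in WT and in endothelial cells in S2CK, from 1 UMI each.

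In gonadotrophs 1 of 7 matrix genes with 10 UMIs was raised, against 1.72% of 8524 genes. This was Lama1, the alpha chain of the first embryonic laminin, at 49.1, 24.7 and 14.4 CPM. Its only other raised level was in connective tissue, at 17.4, 35.7 and 42.6 CPM. In the Pou1f1 lineage the raised gene was Col27a1, 1 of 2 with 10 UMIs, against 1.27% of 5029 genes.

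Pituicytes stood out for Col23a1 and Col25a1, collagens that span the cell membrane. Of 9 genes with 10 UMIs 7 were raised, against 2.71% of 4064 genes: Col11a1, Col23a1, Col25a1, Col27a1, Col9a3, Fbln2 and Sparc. Col23a1 was at 245, 298 and 230.4 CPM and Col25a1 at 364, 363 and 54.9 CPM, both above every other type in each library. Col13a1, another membrane-spanning collagen, was at 178 and 259 CPM in WT and P27NULL but had no UMI in S2CK, where 22 cells were read (interval up to 40.5 CPM). With 22 to 52 cells per library, 1 UMI was worth 8.46 to 13.0 CPM. Macrophages had Col14a1 (63.3, 20.9 and 81.5 CPM), Col27a1 and Sparc (316, 167 and 140.4 CPM) raised among 4 genes with 10 UMIs, against 12.4% of 5537 genes. T or NK cells had none of 1, against 5.95% of 5044.

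Over all types, 30 of the 56 genes with 10 UMIs in some type were raised in 1 type, 15 in 2 and 2 in more (Sparc in 4 and Col27a1 in 3), while 9 were raised in none. Of 40 genes with at least 50 UMIs in all cells, 27 had their highest level in the same type in all 3 libraries. That type was connective tissue for 13, endothelial cells for 6, SCs for 4, pituicytes for 3 and corticotrophs for 1. Shares over all genes are not given for the counts in this paragraph, so they are not read as particular to matrix genes.

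Between the libraries, the basement membrane sum of SCs moved little. It was 0.26 higher in P27NULL than in WT on the log2 scale (-0.04 to 0.55), 0.07 higher in S2CK than in P27NULL (-0.20 to 0.35) and 0.33 higher in S2CK than in WT (0.07 to 0.59). Of the matrix genes for which a pair of libraries gave 50 UMIs or more, none was past 2-fold, out of 2, 8 and 7 in these comparisons. Among all genes 2.42, 8.10 and 6.59% were. When cells were thinned to 1000 UMIs, the values were -0.40 for S2CK over P27NULL and -0.23 for S2CK over WT, so the direction turned. Between S2CK and P27NULL, Nid2 differed by 0.40 (-0.29 to 1.13), Lama3 by 0.71 (-0.21 to 1.70), Col4a1 by -0.13 (-0.97 to 0.74) and Sparc by 0.49 (-0.34 to 1.37). Col4a2, Lamb1, Lamc1, Nid1, Col1a1, Col1a2 and Col3a1 did not reach 50 UMIs there.

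In melanotrophs the sum was lower in S2CK, by -0.47 on the log2 scale against P27NULL (-0.71 to -0.24) and by -0.51 against WT (-0.80 to -0.22). P27NULL differed from WT by -0.04 (-0.31 to 0.24). On thinned cells S2CK over WT became 0.11. Of 11 matrix genes with enough UMIs, 3 were past 2-fold between P27NULL and WT, against 2.59% of all genes. On thinned cells 3 genes had enough UMIs, and Col11a1 was past 2-fold again, at 1.57 (0.35 to 3.08), while the other two did not reach 50 UMIs. Col11a1 was higher in P27NULL by 1.29 (0.78 to 1.83, from 37 and 209 UMIs) and Col20a1 by 1.41, from 2.03 to 5.41 CPM. Lamb1 was lower, from 4.91 to 1.68 CPM, a difference of -1.55 (-2.40 to -0.71). On thinned cells it differed by -0.33 (-2.46 to 2.26), from 3 and 7 UMIs. Lamc1 was at 7.78, 10.4 and 7.42 CPM, and S2CK differed from P27NULL by -0.48 (-0.86 to -0.11). The median of the 11 genes was -0.17, beside 0.10 for all genes tested. None was past 2-fold between S2CK and P27NULL (of 11, against 4.26% of all genes) or S2CK and WT (of 9, against 3.61%).

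Lamb1 was lower still in S2CK melanotrophs, at 0.481 CPM from 7 UMIs, and its share of the beta chain pair was 80.6, 50 and 25% in WT, P27NULL and S2CK. In connective tissue the order was the opposite, with 28.0, 34.8 and 72.2%, and 21 of the 41 Lamb1 UMIs there lay in the 31 cells with pericyte markers. The melanotrophs of the libraries were spread unevenly over the joint clusters. The largest was led by Ccnd2 in WT (37.4% of cells), by Gm10800 in P27NULL (33.7%) and by Klk1 in S2CK (56.6%). WT and P27NULL also shared clusters. The cluster led by Ccnd2 held 19.6% of P27NULL melanotrophs, and another, led by Gm26870, held 22.2% of those in WT and 33.3% in P27NULL. All SCs were in a single joint cluster, led by Mia and Cyp2f2.

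Endothelial cells showed the widest gap. Their basement membrane sum was 0.89 higher in P27NULL than in WT (0.59 to 1.18) and lower in S2CK than in P27NULL, at -1.13 (-1.44 to -0.82), while S2CK over WT was -0.24 (-0.55 to 0.07). Col4a2 was past 2-fold between P27NULL and WT (1 of 4 genes, against 5.48% of all genes), higher by 1.21, and Col4a1 differed by 0.83 (0.40 to 1.26). Col4a1 and Sparcl1 were past 2-fold between S2CK and P27NULL (2 of 4, against 10.8%), at -1.44 (-1.93 to -0.97) and -1.37 (-2.09 to -0.66). On thinned cells Col4a2 differed by 0.65 (-0.69 to 1.92), Col4a1 in the second comparison by -1.40 (-2.24 to -0.59) and Sparcl1 by 0.34 (-1.24 to 2.19), from 5 and 13 UMIs. None of 5 was between S2CK and WT (against 5.0%). The median of the 4 genes was 0.73 for P27NULL over WT and -0.99 for S2CK over P27NULL, where all genes tested had -0.04 and 0.08. The pericyte markers stood in the same order (S2CK lowest, P27NULL highest). Without the cells that carried them, the sum differed by 0.06 (-0.41 to 0.52) and -0.50 (-0.95 to -0.04). P27NULL had only 21 endothelial cells, of which 14 stayed in after this step.

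In connective tissue the basement membrane sum was 0.31 higher in P27NULL than in WT (-0.04 to 0.66) and 0.62 higher in S2CK than in WT (0.30 to 0.95), and S2CK stood 0.31 above P27NULL (0.01 to 0.62). The fibrillar sum went the other way in S2CK, at -0.41 against P27NULL (-0.69 to -0.12) and -0.30 against WT (-0.59 to -0.01), while P27NULL was 0.10 above WT. Pericyte markers were higher in the order WT, P27NULL and S2CK here, and without the cells that held them S2CK over WT was 0.32 for basement membrane genes and -0.43 for fibrillar ones. No library clustered alone at resolution 1 gave a cluster the connective tissue name. In S2CK a cluster of 37 cells led by Apod scored 0.97 as pericytes and 0.93 as connective tissue. Whether the make-up of this type differed between libraries was not tested. None of 7 genes was past 2-fold in any comparison, against 4.51, 11.3 and 10.4% of all genes for P27NULL over WT, S2CK over P27NULL and S2CK over WT. Col1a1 and Col1a2 were lower in S2CK than in P27NULL, at -0.53 (-1.06 to -0.01) and -0.66 (-1.17 to -0.16), and Col3a1 was not, at 0.17 (-0.45 to 0.80). In female-called cells, 8 of which were P27NULL connective tissue, the basement membrane sum of S2CK was lower than that of P27NULL, at -0.59.

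**Figure D5:**
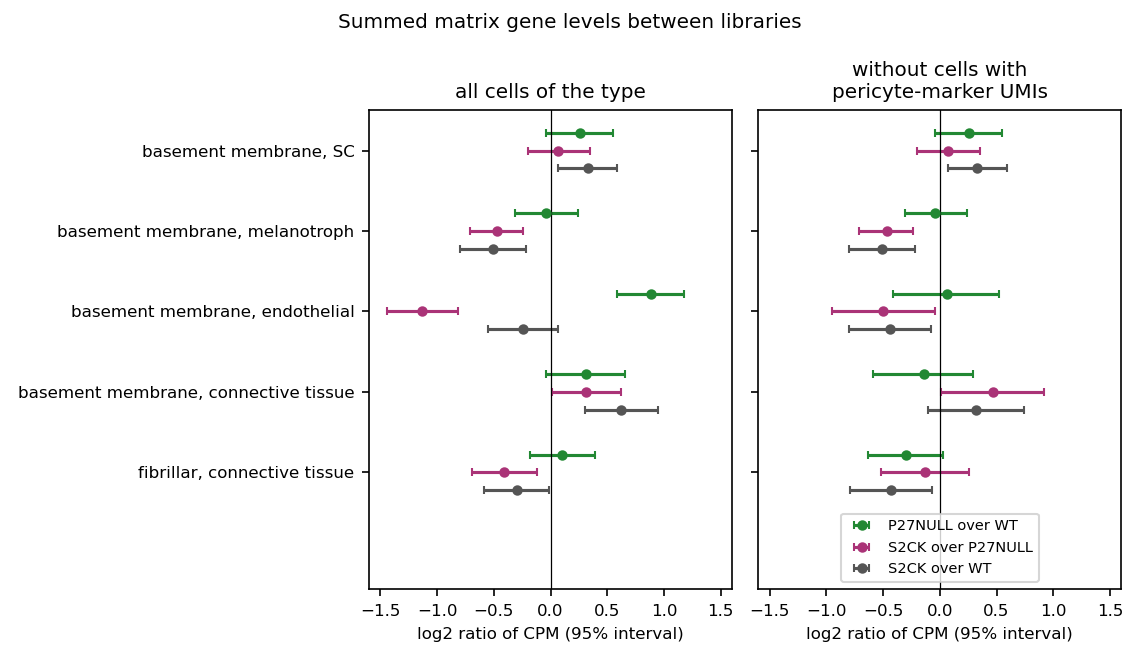
Log2 ratio of summed CPM between libraries, by cell type, for all cells of a type (left) and without cells that hold at least 2 UMIs of pericyte markers (right). Points are ratios and bars exact 95% intervals for counting error. The endothelial ratios of 0.89 and -1.13 at left stand at 0.06 and -0.50 at right, and those of SCs and melanotrophs, from which no cells were left out, are the same.

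Receptors for these proteins were read beside them. In SCs 4 of 15 matrix receptors with 10 UMIs were raised, against 7.88% of all genes: Bcam, which binds the laminin alpha 5 chain, at 118, 196 and 108 CPM, Sdc4 at 292, 249 and 249.6 CPM, Sdc1, and Itgb4, the integrin chain of hemidesmosomes, at 5.62, 7.93 and 7.95 CPM from 11 UMIs in all. In endothelial cells 4 of 6 were raised (13.7% of all genes), among them Itga1, a collagen IV receptor, at 86.2, 78.2 and 25.5 CPM and Itga6, a laminin receptor, at 112, 125 and 178 CPM. Connective tissue had 6 of 11 raised (9.52% of all genes), with Ddr2, a receptor for fibrillar collagen, at 95.9, 35.7 and 28.4 CPM. Among genes that process collagen, 5 of 14 were raised in connective tissue, against the same 9.52%, led by the collagen chaperone Serpinh1 (741, 482 and 426 CPM) and by Pcolce (357, 232 and 263 CPM), and 2 of 11 in SCs, against 7.88%. The SC genes were Plod2, a lysyl hydroxylase, at 65.6, 89.9 and 33.4 CPM and Loxl1 at 24.4, 7.93 and 22.3 CPM.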

How the data were processed

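Intermediate lobes were dissociated with papain, and the authors prepared 3 Chromium (10x Genomics) libraries that read 3′ ends. Values in the deposited files are UMI counts per gene and barcode, not normalized, and the submitters' processing notes name Cell Ranger 3.0.2, STAR 2.5.1b, R 3.6.0 and Seurat 3, with build mm10. The lowest depth per cell was 502 UMIs in WT, 1005 in P27NULL and 1002 in S2CK, so WT appears to have been filtered more loosely.

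Cells were scaled to 10000 counts, and 2000 variable genes, 20 principal components and 20 neighbours were used for Leiden clustering at resolution 1 (scanpy 1.11.5, igraph 0.11.9), leaving out the matrix genes. Clusters of each library alone gave the SCs and melanotrophs, and joint clusters the other types. A name needed 3 detected markers, a relative marker level of 0.3, a margin of 0.1 to the type in second place and no excess of another type's markers among the 10 leading genes. Scrublet marked 11 of 9661 cells and has not worked, so doublets were kept. UMI counts were summed per type and library and divided by all UMIs. Intervals were exact Poisson, Clopper-Pearson or conditional binomial ones. The steps were tested on simulated counts. Genotypes were not tested against each other, since each had 1 library.

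The matrix genes, gene lists and markers were chosen with earlier results of these data known. Named genes were those raised in a type or among its 5 highest, those past 2-fold between libraries with at least 50 UMIs, and Col4a1, Col4a2, Lamb1, Lamc1, Nid1, Sparc, Col1a1, Col1a2 and Col3a1. Other genes named (such as Nid2 and Lama3 where libraries are compared) were chosen after their values were seen, and some matrix genes are not reported here by name. Alternatives were a minimum of 1000 UMIs per cell, joint clusters, resolution 2, leaving out 268 likely doublets, TMM factors (edgeR 4.0.16), a total that leaves out Pomc and the mitochondrial and ribosomal genes, cells thinned to 1000 UMIs, cells called by sex, and other fold and UMI minimums. Sex calls were 2020 male cells in WT, 766 female and 3370 male in P27NULL, and 3274 female and 214 male in S2CK. Any cell without a UMI of Xist, an RNA of female cells, was called male, with no Y-linked UMI needed. Female cells of low depth can thus be among those called male.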

Additional observations from a re-analysis of the deposited data

How the results depend on the processing

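Of the values recomputed, all kept their direction and size under TMM factors and under a total that leaves out Pomc and the mitochondrial and ribosomal genes. In cells thinned to 1000 UMIs, the basement membrane sum of SCs differed by -0.40 (S2CK over P27NULL) and turned to -0.23 (S2CK over WT), that of melanotrophs was 0.36 (P27NULL over WT) and turned to 0.11 (S2CK over WT), and that of endothelial cells was -0.80 (S2CK over P27NULL). Genes past 2-fold between P27NULL and WT then numbered 1 of 3 tested in melanotrophs (3.26% of all genes) and 0 of 2 in endothelial cells (5.18%). In female-called cells S2CK over P27NULL was -0.62 in endothelial cells and turned to -0.59 in connective tissue, and 1, 0 and 1 genes were past 2-fold in melanotrophs, endothelial cells and connective tissue. Male-called cells gave 2 in endothelial cells (P27NULL over WT). The cause of these shifts was not tested. Each of these settings also leaves fewer UMIs or cells. For the counts in sex-called cells, the number tested and the share over all genes were not computed, so they are not read as a result.

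Without cells that held pericyte markers, an alternative chosen after seeing the data, the basement membrane sum of P27NULL over WT was 0.06 in endothelial cells and -0.14 in connective tissue, and S2CK over P27NULL was -0.50 in endothelial cells. The fibrillar sum of connective tissue was -0.30 (P27NULL over WT). Genes past 2-fold were 0 and 0 in endothelial cells (P27NULL over WT and S2CK over P27NULL) and 1 in connective tissue (S2CK over WT). Looser naming of clusters, also chosen after seeing the data, gave 2 in melanotrophs (S2CK over P27NULL), as did Leiden resolution 2, with 1 for joint clusters and 1 without likely doublets. A minimum of 1000 UMIs per cell gave 1 in connective tissue (S2CK over WT). The number tested and the share over all genes were not computed for the counts in this paragraph either. A count of 0 among them therefore does not show that a difference was gone.

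Counts followed the minimum of UMIs. With 20 UMIs in the pair of libraries in place of 50, the genes past 2-fold for P27NULL over WT, S2CK over P27NULL and S2CK over WT numbered 1, 4 and 1 in SCs, of 12, 13 and 12 tested, against 7.33, 12.7 and 10.7% of all genes. In melanotrophs they were 5, 3 and 6 of 19, 22 and 19, against 4.82, 6.32 and 6.23%. In connective tissue they were 1, 3 and 7 of 17, 18 and 22, against 9.20, 15.1 and 15.2%. In endothelial cells they were 2, 2 and 1 of 7, 6 and 7, against 10.8, 15.6 and 10.6%. With 25 UMIs in the type in place of 10, raised genes numbered 22 in connective tissue, 6 in endothelial cells, 3 in pituicytes and 0 in the Pou1f1 lineage. A fold of 2 in place of 4 gave 2 in corticotrophs and 2 in gonadotrophs, and resolution 2 gave 4 in pituicytes. For these raised counts the number tested and the share over all genes were not computed. The shares given earlier do not apply to them. Over the T or NK cells named so at both resolutions, also chosen after seeing the data, Sparcl1 was at 19.6 CPM in place of 91.4. The basement membrane share of SCs was 84.6% without likely doublets.

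No paired analysis was possible because each genotype had 1 library. Depth limits all stromal types, in which 1 UMI was worth 7.10 to 15.6 CPM.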

Other observations

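Connective tissue was led by matrix genes that are neither collagens nor laminins. Mgp, an inhibitor of calcification, was at 6057 CPM in WT, 5574 in P27NULL and 9063 in S2CK, and Dcn, the small proteoglycan that coats collagen fibrils, at 5726, 5886 and 6842 CPM. Each of these stood several times above all fibrillar collagens summed. Efemp1 was at 1386, 1026 and 908 CPM and Lum at 288, 214 and 617 CPM. Of the 26 proteoglycans and other matrix genes with 10 UMIs, 17 were raised there, against 9.52% of all genes.

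In SCs 3 of 18 such genes were raised, against 7.88% of all genes. Ltbp4, which places latent TGF-beta in the matrix, was at 209.9, 243 and 143 CPM, and Prelp, which joins basement membrane to stroma, at 97.4, 175 and 183 CPM. Timp3, an inhibitor of matrix proteases, was at 242, 275 and 515 CPM, and the membrane protease Mmp15 at 152, 114 and 227 CPM. Timp3 and Mmp15 were highest in S2CK. Macrophages had Timp2 at 949, 774 and 561 CPM.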
